A study of Anas platyrhynchos with 6 samples.

Results

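The miRNAs miR-23, miR-24 and miR-27 are partners of a cluster, that is, in vertebrates they are cut from neighbouring hairpins of a common primary transcript. Their members in the duck duodenum were found by name alone: of the 1568 miRNA names listed for each library, 44 carried miR-23, miR-24 or miR-27 after the species prefix, with any copy letter and either arm. Small RNA was sequenced from the duodenum in 3 samples of the traditional breeding (TB) group, kept on the floor, and 3 samples of the cage rearing (CR) group, moved into cages for a trial of 10 days. All were Nonghu No. 2 ducks selected at 90 days of age, kept on the floor before the trial and offered the same amount of food. The paper reports a lower food intake and body weight gain in CR than in TB. RNA was extracted duck by duck, but nothing in the sources used here says whether a library is 1 duck or a pool, so that p-values measure the spread between these samples, which may be technical. The libraries are called TB1 to TB3 and CR1 to CR3 after their group and replicate number.

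Mammals carry a copy of the cluster with miR-23a, miR-27a and miR-24 and another with miR-23b, miR-27b and miR-24, the latter within the gene AOPEP in humans. The mature miR-24 of both copies is the same, whereas the a and b forms of miR-23 and of miR-27 are nearly the same sequence and share the seed, the stretch at the 5′ end with which a miRNA pairs to its targets. In mammals miR-27 is known for repressing genes of lipid metabolism and fat cell formation such as PPARG, miR-23 for repressing glutaminase, and miR-24 for repressing genes of the cell cycle. miR-23 and miR-27 are also known from endothelial cells, where they promote the growth of blood vessels.

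Values are RPM, the reads of a name per 1000000 reads counted under all names of the library. Depth ran from 1500905 reads in CR2 to 11395209 reads in CR1, so that 1 read was worth 0.666 and 0.0878 RPM in these libraries. TB1 and CR2 stood apart from the rest. Across the 662 names that reached 10 reads in 3 or more libraries, their log2(RPM + 1) values had a correlation of 0.968 with each other and of 0.737 to 0.818 with the other 4 libraries, whose own correlations were 0.982 to 0.992. The labels give intestinal epithelial cells as the cell type, while the methods describe a piece of the duodenum. Smooth muscle miRNAs (miR-143 and miR-145, the most abundant name of each summed) stood at 91168 to 198015 RPM, beside the enterocyte miRNAs miR-192, miR-194 and miR-215 at 24291 to 179483 RPM in the same libraries.

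Of the 44 names, 16 were of miR-23, 14 of miR-24 and 14 of miR-27, under 26 species prefixes. None had the duck prefix and 1 had the chicken prefix (gga-miR-23b-5p). Names whose reads were the same in all 6 libraries were taken as 1 profile. At least 1 read was counted for 42 names, which made 27 profiles, and 2 names (cgr-miR-23b-5p and mmu-miR-23b-5p) were at 0 in every library, where 3 reads, the limit that a count of 0 allows, are 0.263 RPM in CR1 and 1.999 RPM in CR2. The filter of 10 reads in 3 libraries was passed by 28 names in 19 profiles, 7 of miR-23, 4 of miR-24 and 8 of miR-27. Several of these profiles are near copies of each other. efu-miR-27b and mmu-miR-27b-3p differed by at most 1 read in any library and dno-miR-24b-3p and dre-miR-24b-3p by at most 17 reads, so that the same reads appear to stand under several names.

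The most abundant name of each partner comes from the 3p arm or has no arm in its name. For miR-27 it was efu-miR-27b (the big brown bat prefix, called miR-27b from here on), with 3445, 792 and 583 RPM in TB1 to TB3 and 1055, 3575 and 597 RPM in CR1 to CR3. The name hsa-miR-24-3p, with the same reads as sha-miR-24 and called miR-24 here, had 1100, 315 and 231 RPM in TB1 to TB3, and 309, 1751 and 222 RPM in CR1 to CR3. The miR-23 partner efu-miR-23a, with the same reads as hsa-miR-23a-3p and mdo-miR-23a-3p and called miR-23a here, had 575, 204 and 143 RPM in TB1 to TB3, and 149, 663 and 111 RPM in CR1 to CR3. In each of the 6 libraries miR-27b was the highest of the 3 partners and miR-23a the lowest. The values are not corrected for the efficiency with which each miRNA is ligated and amplified.

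**Figure D1:**
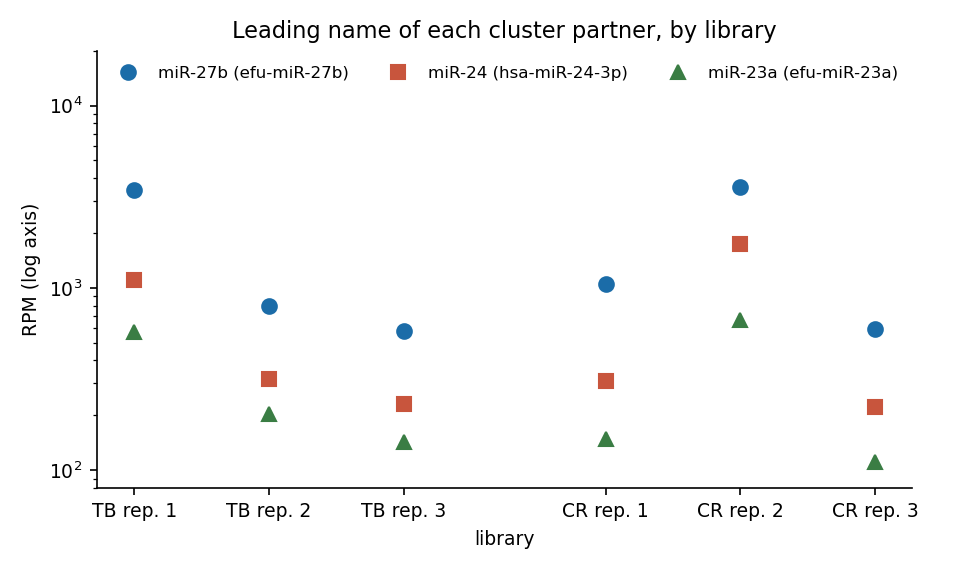
Level of the most abundant name of miR-27, miR-24 and miR-23 in RPM (log axis) in each of the 6 libraries, 1 point per library. The partners keep the same order in every library, and all 3 are highest in TB1 and CR2, where miR-27b reached 3445 and 3575 RPM.

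TB1 and CR2 held the highest values of all 3 partners, and the other 4 libraries were all lower. For miR-27b, TB1 was 4.35 times TB2 and 5.91 times TB3, and CR2 was 3.39 times CR1 and 5.99 times CR3. For miR-24 the same ratios were 3.49, 4.76, 5.66 and 7.90, and for miR-23a they were 2.82, 4.03, 4.45 and 5.97. The lowest count behind these values was 995 reads of miR-23a in CR2, with a 95% Wilson interval of 623 to 705 RPM. Counting error was thus far smaller than the differences of TB1 and CR2 from the other 4 libraries. Among those 4, some intervals overlapped, such as 568 to 599 RPM in TB3 and 582 to 612 RPM in CR3 for miR-27b. These intervals cover counting error only, since the reads carry no molecular identifiers.

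The same libraries were highest throughout the cluster. All 19 tested profiles had TB1 and CR2 as their highest pair, CR2 being first in 18 of them and TB1 in 1. Among all 447 distinct tested profiles 57.3% had this pair on top, and among the 180 with a mean of at least 100 RPM it was 60.6%, with 23.9% having the same pair at the bottom. The pattern was therefore common in these libraries. Of the other 4 libraries, TB2 exceeded TB3 in 18 of the 19 profiles and CR1 exceeded CR3 in 17. Near copies count separately here. These orders were not counted over all tested profiles, so they cannot be read as a trait of the cluster.

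Marker miRNAs of several cell types moved with these libraries, in part with members of a list going opposite ways. The endothelial list (miR-126, miR-221 and miR-222, 3 of 3 detected) summed to 4404 RPM in TB1 and 3660 RPM in CR2, and to 839 to 1755 RPM elsewhere. Its defining member miR-126 was the lower there, at 469 and 639 RPM against 736 to 1467 RPM, and the sum followed miR-221, at 3218 and 2347 RPM against 80.6 to 215 RPM. The mesenchymal list (miR-199 and miR-214, 2 of 2 detected) was at 1209 and 1969 RPM against 318 to 571 RPM, which followed miR-214, at 671 and 1518 RPM against 13.6 to 22.8 RPM, while miR-199 was at 538 and 451 RPM against 304 to 555 RPM. The pancreas list (miR-216, miR-217 and miR-375, 3 of 3 detected) was at 3768 and 7335 RPM against 235 to 342 RPM. Of that sum 98.4% to 99.7% was miR-375, also known from gut endocrine cells, whereas miR-217 was at 44.3 and 14.7 RPM against 0.998 to 3.77 RPM and miR-216 at 7.88 and 10.7 RPM against 0.11 to 0.97 RPM. The epithelial list (miR-200a, miR-200b, miR-200c, miR-141 and miR-429, 5 of 5 detected) was at 17773 and 14431 RPM, against 5083 to 9317 RPM. That sum followed miR-200b, at 8991 and 6615 RPM against 1366 to 3454 RPM, and miR-200c and miR-429 were higher as well. miR-200a was at 5278 and 3544 RPM against 2611 to 4311 RPM, and miR-141 at 732 and 970 RPM against 788 to 978 RPM. The enterocyte list (3 of 3 detected) was lower in TB1 and CR2, at 32021 and 24291 RPM against 117615 to 179483 RPM. The smooth muscle list (2 of 2 detected, at least 98.7% of it miR-143) was lower there too, at 118822 and 91168 RPM against 150969 to 198015 RPM. Its member miR-145 was higher there, at 1490 and 941 RPM against 559 to 867 RPM. The leukocyte list (miR-142, miR-146a, miR-150, miR-155 and miR-223, 4 of 5 detected, miR-150 at 0) was at 128 and 234 RPM against 260 to 359 RPM. That sum followed miR-142, at 31.9 and 87.9 RPM against 237 to 321 RPM. Its members miR-146a, at 71.8 and 96.6 RPM against 15.8 to 28.7 RPM, and miR-155, at 24.7 and 49.3 RPM against 6.90 to 9.98 RPM, were higher in TB1 and CR2. The skeletal and cardiac muscle list (miR-1, miR-133, miR-206 and miR-499, 4 of 4 detected) was at 1189 and 1102 RPM against 3255 to 4779 RPM. That sum followed miR-1, at 269 and 254 RPM against 3180 to 4662 RPM. The name behind these miR-1 values was mmu-miR-1b-5p, a name of the 5p arm, and the strand used in counting is not given. The list's member miR-133 was higher in TB1 and CR2, at 907 and 822 RPM against 64.6 to 214 RPM. So was miR-206, at 10.3 and 25.3 RPM against 0 to 0.50 RPM. Hepatocyte miR-122 (1 of 1 detected) was at 7.36 and 328 RPM against 1.55 to 5.10 RPM. The erythroid list (miR-144 and miR-451, 2 of 2 detected) ran from 21.2 to 55.5 RPM and the neuronal list (miR-9 and miR-124, 2 of 2 detected) from 45.2 to 112 RPM. The part of these differences in the levels of miR-23, miR-24 and miR-27 was not tested. In bulk tissue, fewer cells of a type and less of its RNA per cell cannot be told apart.

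Whether cage rearing changed the partners was asked by comparing CR with TB. The groups overlapped for each partner. The mean of miR-27b was 1607 ± 1595 RPM for TB (SD, n = 3) and 1742 ± 1604 RPM for CR (SD, n = 3). In limma on log2(RPM + 1) its log2 fold change of CR over TB was 0.17 with a standard error of 0.96 and a 95% interval from -2.17 to 2.51 (adjusted p = 0.999). miR-24 averaged 549 ± 479 RPM for TB and 761 ± 859 RPM for CR, with a log2 fold change of 0.19 (standard error 1.02, 95% interval from -2.28 to 2.67, adjusted p = 0.999 in limma). miR-23a averaged 307 ± 234 RPM for TB and 308 ± 308 RPM for CR, with a log2 fold change of -0.20 (standard error 0.93, 95% interval from -2.45 to 2.04, adjusted p = 0.999 in limma). The two-sided exact permutation test on RPM, which cannot go below 0.1 with 3 libraries against 3, gave p = 0.7, p = 0.9 and p = 1.0 for miR-27b, miR-24 and miR-23a. Each interval reached beyond 4-fold in both directions, so that a change of that size was not detectable at this spread.

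The sign of each partner's difference turned on which library was left out. miR-27b ran from -0.56 without CR2 to 0.95 without TB1 on the log2 scale, miR-24 from -0.72 to 0.87 and miR-23a from -0.99 to 0.38 for the same libraries. Without both TB1 and CR2, the log2 fold change was -0.043 for miR-24 and -0.41 for miR-23a. It was 0.22 for miR-27b.

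Of the 28 tested names of the cluster, 0 had an adjusted p under 0.05 in limma, against 0.00% of all 662 tested names, and 0 had an unadjusted p under 0.05, against 0.00% of all. edgeR on the reads recovered from the RPM values called 0 names of the cluster at an unadjusted p under 0.05 and 5 of all 662 names, and 0 of all at an adjusted p under 0.05. In none of the 19 profiles were the groups apart, where 2.27% of all tested names had every CR library above or below every TB library. The log2 fold change was above 0 in 17 profiles and below 0 in 2, with a median of 0.31 beside 0.05 over all tested names. After TMM scaling of the RPM values, 11 profiles were above 0. The median of the 19 was then 0.12, beside -0.11 over all tested names. With CR2 left out and no TMM scaling, 2 profiles were above 0, with a median of -0.64 beside -0.44 over all names. Near copies enter these counts several times.

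**Figure D2:**
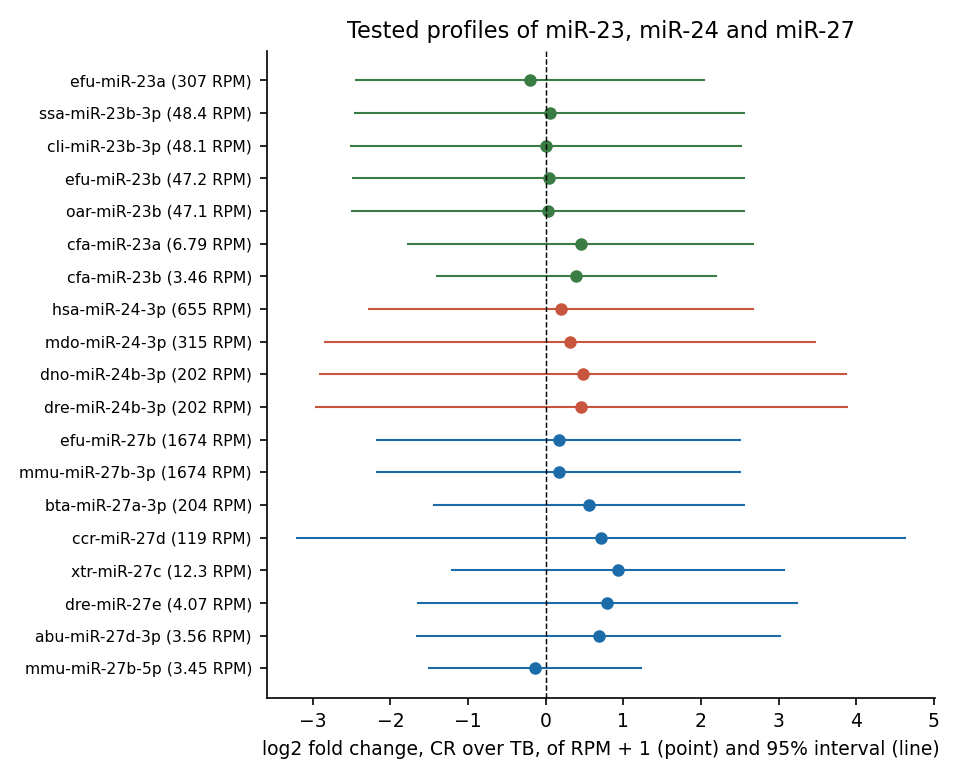
Log2 fold change of CR over TB on log2(RPM + 1) from limma (point) with its 95% interval (line) for the 19 tested profiles, with the mean RPM over 6 libraries beside each name. Every interval crosses 0, and the points lie between -0.20 (miR-23a) and 0.93 (xtr-miR-27c).

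The partners were compared within each library, where the scaling of the library cancels. In the mammalian arrangement given above, miR-23a and miR-27b belong to different copies of the cluster, and miR-24 to both. The ratios are therefore not ratios within a single primary transcript. The reads of miR-24 were 1.91, 1.54 and 1.62 times those of miR-23a in TB1 to TB3 and 2.08, 2.64 and 1.99 times in CR1 to CR3. Every CR library lay above every TB library. The mean difference was 0.40 on the log2 scale, a ratio 1.32 times as high in CR (exact permutation test, two-sided, p = 0.1, the smallest that the design allows, and 0.3 after adjustment over the 3 ratios). Among the pairs that can be formed from the 180 profiles with a mean of at least 100 RPM, 1.81% had groups apart in this way. These pairs include profiles with TB1 and CR2 at the top set against profiles with them at the bottom, whose ratios readily overlap. The share is therefore not a background matched to miR-24 and miR-23a, which both have TB1 and CR2 on top. The closest libraries were within counting error of each other, with a 95% Wilson interval of 1.83 to 1.995 in TB1 and of 1.86 to 2.14 in CR3. The difference was 0.36 on the log2 scale without TB1 and CR2, where the exact permutation test of 2 libraries against 2 cannot go below p = 0.333, the value it gave. When all profiles of each partner other than the 5p arms were summed, near copies included, the ratios were 2.45, 1.72 and 1.69 in TB and 2.35, 3.60 and 1.90 in CR, and the groups overlapped (exact permutation test, p = 0.3).

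For miR-27b over miR-23a the ratio was 5.99, 3.88 and 4.09 in TB and 7.09, 5.39 and 5.37 in CR. TB1 lay among the CR libraries, and the difference of 0.37 on the log2 scale did not pass the exact permutation test (two-sided, p = 0.3, adjusted 0.45). The ratio of miR-27b to miR-24 was 3.13, 2.51 and 2.52 in TB and 3.41, 2.04 and 2.69 in CR, with a difference of -0.028 on the log2 scale (two-sided exact permutation test, p = 1.0, adjusted 1.0). This last difference was 0.27 without TB1 and CR2. Over the 6 libraries the 3 ratios varied 1.83-fold for miR-27b to miR-23a, 1.71-fold for miR-24 to miR-23a and 1.67-fold for miR-27b to miR-24. The levels themselves varied 6.13-fold for miR-27b, 7.90-fold for miR-24 and 5.97-fold for miR-23a. Ratios narrower than levels were not particular to the partners. Some names outside the cluster followed each partner more closely than another partner did, as given below.

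**Figure D3:**
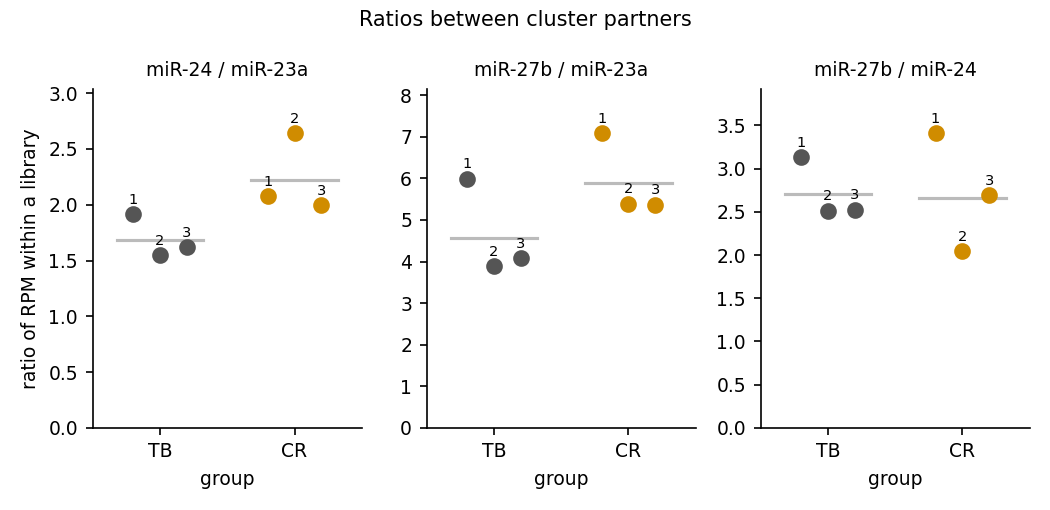
Ratio of RPM between cluster partners in each library (linear axes from 0), with the replicate number above each point and the geometric mean of the group as a grey line. The miR-24 to miR-23a ratio is 1.54 to 1.91 in TB and 1.99 to 2.64 in CR, and the groups overlap in both other ratios. In mammals miR-23a and miR-27b belong to different copies of the cluster.

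The other copies of miR-23 were far less abundant than miR-23a. miR-23b (efu-miR-23b, with the same reads as mmu-miR-23b-3p and tch-miR-23b-3p) had 95.5, 23.6 and 17.0 RPM in TB1 to TB3, and 21.1, 108 and 18.2 RPM in CR1 to CR3, which was 11.5% to 16.6% of the reads of miR-23a. Its near copies oar-miR-23b, cli-miR-23b-3p and ssa-miR-23b-3p differed from it by at most 15 reads in a library. The log2 fold change of miR-23b was 0.039 in limma, with a standard error of 1.04. The dog names cfa-miR-23a and cfa-miR-23b had few reads, 192 and 111 in all, and ranged from 2.28 to 20.7 RPM and from 1.28 to 8.66 RPM. Their log2 fold changes were 0.45 (standard error 0.92) and 0.39 (standard error 0.74). Since the a and b forms of miR-23 are nearly the same, the authors' counting could have placed reads of one under the other.

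miR-27a (bta-miR-27a-3p, with the same reads as hsa-miR-27a-3p) had 272, 112 and 86.3 RPM in TB1 to TB3, and 179, 476 and 98.2 RPM in CR1 to CR3. Its reads were 7.90% of those of miR-27b in TB1 and 13.3% to 17.0% in the other 5 libraries. The log2 fold change was 0.56, with a standard error of 0.82 in limma, and the groups overlapped. The reads of miR-27a and miR-27b are uncertain for the same reason as those of miR-23. miR-27c (xtr-miR-27c, the clawed frog prefix) was low, at 14.9, 5.35 and 3.11 RPM in TB1 to TB3, and 9.04, 34.0 and 7.20 RPM in CR1 to CR3, from 389 reads in all. It had the highest log2 fold change of the cluster, at 0.93 with a standard error of 0.88 (adjusted p = 0.999 in limma). Relative to miR-27b it was at 0.43%, 0.68% and 0.53% in TB and at 0.86%, 0.95% and 1.21% in CR. The groups were thus apart in this share, 1 of 10 shares of copies or arms that were looked at. The closest libraries, TB2 and CR1, rest on 50 and 103 reads of miR-27c. Counting intervals of the share were not computed, so the gap may lie within counting error. Of all pairs of distinct tested profiles with reads in every library, 3.49% had ratios with groups apart. This share too mixes profiles with TB1 and CR2 at the top and at the bottom, and is not a matched background.

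Some names varied more between libraries than the leading names they resemble. miR-27d (ccr-miR-27d, with the same reads as dre-miR-27d, both fish prefixes) had 216, 20.7 and 11.5 RPM in TB1 to TB3, and 40.5, 414 and 14.0 RPM in CR1 to CR3, a 35.9-fold span. That was 6.27%, 2.61% and 1.98% of miR-27b in TB and 3.84%, 11.6% and 2.35% in CR, highest in TB1 and CR2. Its log2 fold change was 0.71 with a standard error of 1.61 in limma, the largest standard error of the cluster. The opossum name mdo-miR-24-3p stood at 556, 102 and 67.4 RPM in TB1 to TB3, and at 115, 986 and 64.9 RPM in CR1 to CR3. For dno-miR-24b-3p (armadillo) the levels were 363, 52.1 and 33.4 RPM, and 67.5, 660.3 and 38.8 RPM. Both names were thus highest in CR2 and next in TB1, and their shares of miR-24 were as well. mdo-miR-24-3p had 50.6%, 32.3% and 29.2% of the reads of miR-24 in TB and 37.1%, 56.3% and 29.3% in CR, and dno-miR-24b-3p had 33.0%, 16.5% and 14.5% in TB and 21.8%, 37.7% and 17.5% in CR. Their log2 fold changes were 0.31 (standard error 1.30) and 0.48 (standard error 1.40). dre-miR-27e, with the same reads as ipu-miR-27e and ola-miR-27d-3p, had 111 reads in all and a log2 fold change of 0.79 (standard error 1.01), and abu-miR-27d-3p was its near copy.

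**Figure D4:**
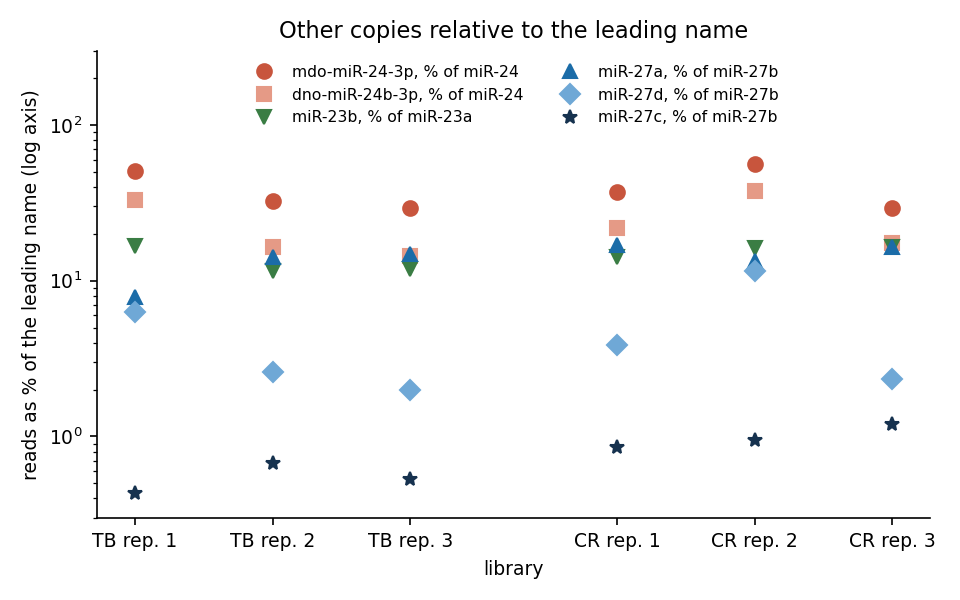
Reads of 6 further names as a percentage of the reads of their partner's most abundant name (log axis) in each library. The shares of miR-27d and of mdo-miR-24-3p and dno-miR-24b-3p are highest in TB1 and CR2, the share of miR-27a is lowest in TB1 at 7.90%, and that of miR-27c lies above all TB libraries in all CR libraries.

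A hairpin gives a 5p and a 3p arm, of which one is usually kept. The reads of the cluster lay almost entirely under names of the 3p arm or of no stated arm. The most abundant 5p name of miR-27, mmu-miR-27b-5p, had 142 reads in all against 55668 of miR-27b, which was 392 times as many. It was at 5.96, 3.21 and 1.997 RPM in TB1 to TB3, and 2.90, 4.66 and 2.0 RPM in CR1 to CR3, where the value of CR2 rests on 7 reads (95% Wilson interval 2.26 to 9.63 RPM). Its log2 fold change was -0.14 with a standard error of 0.56 in limma. As a share of miR-27b it was lowest in CR2 (0.13%) and TB1 (0.17%) and was 0.275% to 0.406% in the other 4 libraries. The 5p arm of miR-24 (chi-miR-24-5p, the same reads as hsa-miR-24-1-5p and rno-miR-24-1-5p) had 33 reads, 19 of them in TB1, and miR-24 had 596 times as many. The 5p arm of miR-23b (gga-miR-23b-5p, the same reads as tgu-miR-23-5p) had 11 reads, 10 of them in TB1 and 1 in CR1. The other names that missed the filter were oan-miR-24-1-5p with 30 reads, xla-miR-24b-3p and xtr-miR-24b, and 6 names with 1 to 9 reads in all. xla-miR-24b-3p and xtr-miR-24b had the same reads as each other, also 30 in all but spread otherwise over the libraries than those of oan-miR-24-1-5p.

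The spread of the partners over the 6 libraries lay near the middle of that of abundant miRNAs. The standard deviation of log2(RPM + 1) was 1.21 for miR-27b, 1.26 for miR-24 and 1.10 for miR-23a, beside a median of 1.26 over the 180 distinct profiles with a mean of at least 100 RPM. By mean level miR-27b ranked 57 of the 447 distinct tested profiles, miR-24 ranked 97 and miR-23a ranked 124. Near copies take separate ranks, such as mmu-miR-27b-3p at 58. The spread was larger for miR-27d, at 2.11, which 43 of the 180 profiles exceeded, and smaller for miR-27a, at 0.96, which 120 exceeded.

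The names most like each partner over the 6 libraries were sought among the 171 other profiles with a mean of at least 100 RPM, by the root mean square difference of log2(RPM + 1) after each name's own mean was taken off. The closest to miR-24 was hsa-miR-3074-5p, at 0.0030. In humans miR-3074 is annotated on the strand opposite to a miR-24 hairpin, and its 5p sequence is the reverse complement of that region of miR-24-3p. The reads of hsa-miR-3074-5p were 6239, 2924 and 2069 in TB1 to TB3, and 3505, 2621 and 2213 in CR1 to CR3, between 99.3% and 99.9% of those of miR-24 in every library. Without a statement that the authors' counting used the strand, the reads of these names cannot be told apart. The closest to miR-23a were hsa-miR-103b and hsa-miR-103a-3p, both at 0.12, and gga-let-7i at 0.22. hsa-miR-103b is likewise annotated opposite to a miR-103a hairpin in humans, and its reads were 95.7% to 99.1% of those of hsa-miR-103a-3p. These opposite-strand names were looked at after their values were seen. The next closest to miR-24 were gga-let-7i at 0.12 and dme-let-7-5p at 0.13, and the closest to miR-27b were cpi-miR-363-3p and its near copy rno-miR-363-3p, both at 0.11, and bfl-let-7b at 0.15. The partners differed among themselves by 0.25 between miR-23a and miR-24, 0.30 between miR-23a and miR-27b and 0.24 between miR-24 and miR-27b. Of the 171 profiles under other names, 6 were closer to miR-23a than miR-24 was, and 8 were closer to miR-24 than miR-23a was. These 8 include hsa-miR-3074-5p, whose reads cannot be told apart from those of miR-24. For miR-23a and miR-27b, 10 were closer to miR-23a and 14 closer to miR-27b than the other partner was. For miR-24 and miR-27b, 5 were closer to miR-24 and 8 closer to miR-27b. Names with nearly the same reads, such as hsa-miR-103b and hsa-miR-103a-3p, count separately here. The median difference from the 171 profiles was 1.09 for miR-23a, 1.04 for miR-24 and 1.05 for miR-27b. All these profiles share the same 6 libraries.

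**Figure D5:**
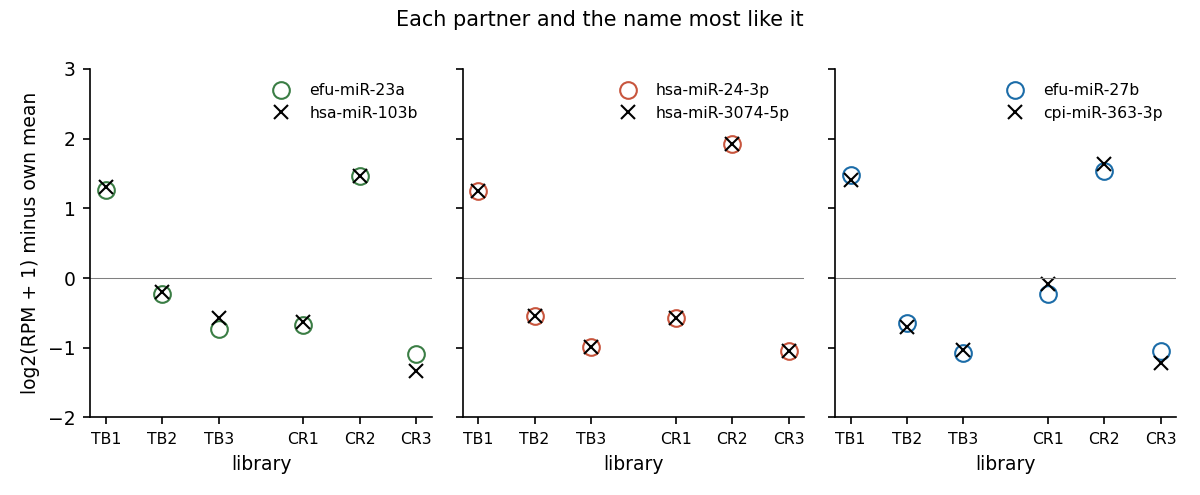
Level of each partner (open circle) and of the name most like it outside the 44 member names (cross) in each library, as log2(RPM + 1) minus the name's own mean over the 6 libraries. hsa-miR-3074-5p lies on miR-24 in every library, with a root mean square difference of 0.0030, while hsa-miR-103b differs from miR-23a by 0.12 and cpi-miR-363-3p from miR-27b by 0.11.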

How the data were processed

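Small RNA libraries were prepared by the authors from duodenum with the TruSeq kit and sequenced on an Illumina HiSeq platform. The authors deposited 1 table per library with RPM values under a column headed tpm, each summing to 1000000. Aligner, genome build, strand and read filters are not given in the sources used here, and FPKM is the normalization the methods name. Every value (100% at a tolerance of 0.01) was a whole multiple of 1 read, so reads were recovered by division. limma 3.58.1 (lmFit, eBayes with trend) on log2(RPM + 1) was fitted to all 662 names that reached 10 reads in 3 or more libraries, with Benjamini-Hochberg adjustment over all of them. The pseudocount of 1 understates changes of low names. Ratios were compared by exact permutation tests. edgeR 4.0.16 and DESeq2 1.42.0 on recovered reads, TMM scaling, pseudocounts of 0.5 and 5, other filters, identical rows counted once, a replicate block and left-out libraries were alternatives. Only the limma, edgeR and DESeq2 fits were tested on simulated data, in which no library stood apart as TB1 and CR2 do here. The software was R 4.3.3 and Python 3.11.15 with scipy 1.17.1, matplotlib 3.10.9, numpy 2.4.6 and pandas 2.3.3.

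Named were the members at 0 and those with at least 10 reads in all, with values in every library for the leading names and for profiles with a mean of at least 10 RPM, and the 3 names most like each partner. Near copies of a profile already given were named by their difference in reads alone. Members of marker lists were named after their values were seen, where they made up or went against a sum. Members, marker lists and tests were chosen with earlier results of these data known. No mature sequences were used here.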

Additional observations from a re-analysis of the deposited data

How the results depend on the processing

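No name of the cluster had an adjusted p under 0.05 in limma, edgeR or DESeq2, in any alternative or with any library left out (range 0 to 0). At an unadjusted p under 0.05 the number was 0 in all of them (0 to 0 with a library left out) except 1 without both TB1 and CR2. That name was xtr-miR-27c, at a log2 fold change of 0.83. It was 1 of 28 tested names of the cluster. In the same limma setting, 24 of all 662 tested names had an unadjusted p under 0.05, and 0 had an adjusted p under 0.05. A call like that of xtr-miR-27c was therefore not particular to the cluster. The log2 fold change of miR-27b was -0.11 with edgeR, -0.037 with DESeq2 and -0.022 with TMM-scaled RPM. For miR-24 it was -0.017 with edgeR and -0.043 without both libraries. miR-23b had -0.22 with edgeR, -0.13 with DESeq2, -0.15 with TMM-scaled RPM and -0.030 without both libraries, and the ratio of miR-27b to miR-24 moved to 0.27 without both. TMM moved the median of all names from 0.05 to -0.11. The cause of these changes was not tested.

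With one library left out, the log2 fold change ran from -0.56 to 0.95 for miR-27b, from -0.72 to 0.87 for miR-24, from -0.99 to 0.38 for miR-23a, from -0.76 to 0.77 for miR-23b, from -0.38 to 0.99 for cfa-miR-23a, from -0.18 to 0.85 for cfa-miR-23b, from -0.85 to 1.22 for mdo-miR-24-3p, from -0.74 to 1.51 for dno-miR-24b-3p, from -0.055 to 1.08 for miR-27a, from -0.64 to 1.95 for miR-27d, from 0.28 to 1.48 for miR-27c, from 0.019 to 1.55 for dre-miR-27e and from -0.42 to 0.19 for mmu-miR-27b-5p. The lowest came without CR2 and the highest without TB1 for the 3 leading names. The difference in log2 ratio ran from -0.21 to 0.16 for miR-27b to miR-24, from 0.27 to 0.49 for miR-24 to miR-23a and from 0.24 to 0.57 for miR-27b to miR-23a.

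A replicate block in limma gave 0 calls. Its log2 fold changes were the same, which they must be where both groups hold the same replicate numbers. The deviations of same-numbered libraries from their group means had correlations of -0.80, -0.91 and 0.91. With 3 libraries a group, these values depend on where TB1 and CR2 stand. They cannot tell whether the numbers pair the samples. Depth limits the 5p arms, where 3 reads were worth 1.999 RPM in CR2. Of the alternative values of single names beside the leading ones, 18 reversed in sign and 136 did not. For the leading names, the ratios and the counts of names called, 17 reversed, 1 moved and 92 stayed the same. Other filters, identical rows counted once and the replicate block leave a log2 fold change as it is. Part of the values that did not reverse were therefore fixed in advance.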
